A study of Mus musculus with 21 samples.

Results

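Membrane fusion genes were followed across tuft cells, rare chemosensory epithelial cells, of 5 mouse tissues. The set held every protein-coding gene whose symbol follows the naming of synaptotagmins (Syt), synaptotagmin-like proteins (Sytl), syntaxins (Stx), syntaxin-binding proteins (Stxbp), vesicle-associated membrane proteins (Vamp) or synaptosome-associated proteins (Snap). It came to 56 genes of the 43432 identifiers counted: 17 Syt, 5 Sytl, 15 Stx, 7 Stxbp, 7 Vamp and 5 Snap. The naming rule uses no measured value, although this set of families was picked with earlier results of these data known. Messenger RNA was sequenced from 21 libraries in 6 groups. All mice were naive and of the strain C57BL6.Il25(Flare25/Flare25), which carries a fluorescent reporter in the Il25 gene on both alleles. Tuft cells were sorted as live, reporter-positive cells with EPCAM and without CD45, from small intestine (n = 3), colon (n = 4), gall bladder (n = 3), thymus (n = 4) and trachea (n = 4). Reporter-negative epithelial cells of the small intestine were the non-tuft reference (n = 3). Libraries came from 1 male mouse of 12 weeks each, except in trachea, where each was a pool of 4 mice. Trachea pool 1 was from males of 12 weeks, pool 2 from males of 16 weeks, pool 3 from females of 16 weeks and pool 4 from females of 14 weeks. Cells sorted per library numbered 52000 to 57000 for the reference, 35000 to 36000 for small intestine tuft, 13500 to 16000 for colon, 1750 to 2700 for gall bladder, 1350 to 1900 for thymus and 130 to 453 for trachea.

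Regulated secretion ends with the fusion of a vesicle with its target membrane. A vesicle SNARE of the Vamp family zippers with a syntaxin and a Snap protein on the target membrane, and the bundle pulls both membranes together. Stxbp2 and Stxbp3 are Sec1/Munc18 proteins that hold and template syntaxins. Many synaptotagmins are calcium sensors that trigger fusion, and the synaptotagmin-like proteins tether vesicles through Rab27. Neurons and endocrine cells rely on Snap25, Stx1a, Vamp2 and Syt1, whereas most other cells use Snap23, Stx3 or Stx4a, Vamp3 or Vamp8, and Stxbp2 or Stxbp3. Tuft cells release interleukin 25, lipid mediators and acetylcholine. Snap91 met the naming rule but encodes a clathrin adaptor and not a SNARE.

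Libraries held 25739248 to 73574745 counts. Levels are given in CPM, counts scaled to library size with TMM factors, and 3 counts, the floor used here for a count of 0, were worth 0.0423 to 0.107 CPM. The libraries were amplified and carried no molecular identifiers that the labels name, so such floors cover counting error only. The 10 tuft cell markers fixed for the check (among them Pou2f3, Trpm5 and Dclk1) summed to between 131 and 257 CPM in the reference libraries and to between 3150 and 19400 CPM in the tuft libraries, and all 10 rose in small intestine tuft cells. Tuft libraries of some tissues also held markers listed for other cell types, in amounts given beside the results. The name of a list does not show which cells held its genes. In bulk samples, fewer cells of a type and less RNA per cell cannot be told apart. Tissue also cannot be told apart from preparation, since the tissues were not all dissociated in the same way. The labels do not say whether tuft and non-tuft cells of the small intestine came from the same mice. Replicate spread differed between groups: over members with a group mean of at least 10 CPM, the median ratio of SD to mean was 0.0979 for reference libraries, 0.172 for tuft cells of small intestine, 0.207 for colon, 0.326 in thymus, 0.499 in gall bladder and 0.712 in trachea. Over all genes at that level it was 0.102, 0.151, 0.21, 0.262, 0.509 and 0.565 in the same order.

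Of the 56 members, 41 reached a mean of 10 CPM in at least 1 group, 15 did not, and 3 never reached 1 CPM (Syt4, Syt15 and Syt16). The group with the highest mean was trachea for 15 of the 41, thymus for 10, the reference for 8, gall bladder for 5, small intestine tuft for 2 and colon for 1. Over all 12310 genes at that level, trachea was highest for 3407, gall bladder for 3015 and thymus for 1691. The reference was highest for 1640, small intestine tuft for 1385 and colon for 1172. Every library of the top group lay above every other library for 10 of the 41 (24.4%), a share near the 23.2% found over all 12310 genes at that level. Among these were Snap25, Stxbp5l, Syt7, Sytl2 and Sytl5 in the reference, Snap91, Stx11 and Syt1 in thymus, and Vamp2 in trachea. They made 5 of the 8 members highest in the reference (62.5%, beside 28% of all genes highest there). In thymus they made 3 of 10 (30%, beside 45.6%) and in trachea 2 of 15 (13.3%, beside 13%). Small intestine tuft, colon and gall bladder had 0, beside 28.2%, 24.4% and 16.7% of all genes.

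**Figure D1:**
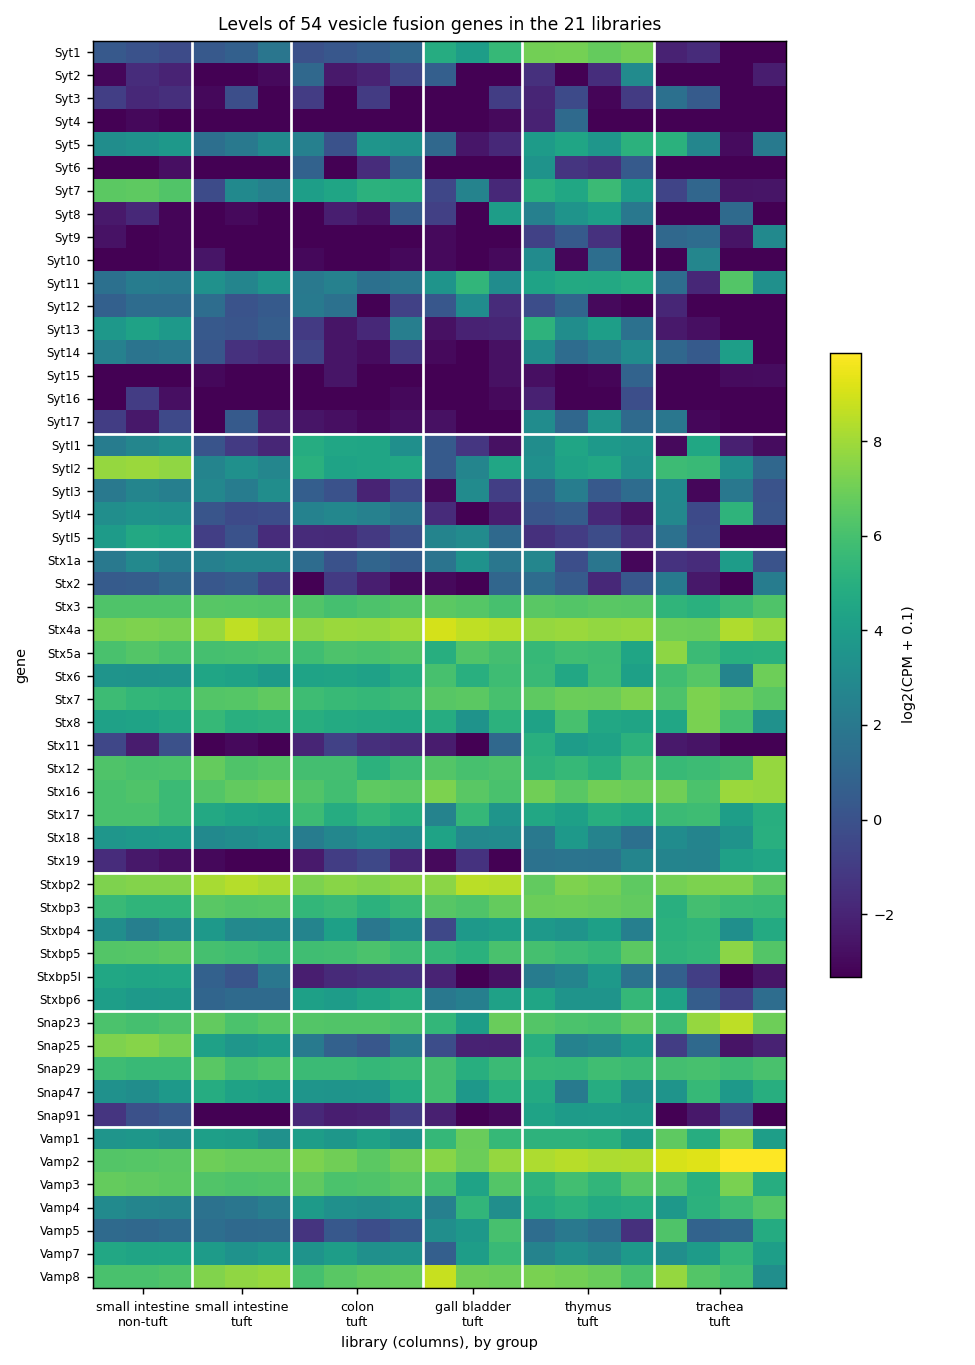
Levels of 54 of the 56 genes (rows, by family) in the 21 libraries (columns, by group), as log2(CPM + 0.1) from dark (low) to yellow (high). Stx4a, Stxbp2, Vamp2 and Vamp8 are bright in every group, the Syt rows are mostly dark, and Syt1 stands out in thymus and Vamp2 in trachea.

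To set genes beside each other, levels were divided by the joined length of all annotated exons of a gene. That length need not be that of the transcripts present, and the order of genes depends on it. On this scale the most abundant member over all 21 libraries was Stx4a, a plasma membrane syntaxin, at a mean of 105 CPM per kilobase. Vamp2, a vesicle SNARE, followed at 74.1 CPM per kilobase, Vamp8, the SNARE of endosomes and many secretory granules, at 56, Stxbp2 at 46.6 and Stx16, a syntaxin of the trans-Golgi network, at 27.2. Among the Snap proteins Snap23 led at 22.6 CPM per kilobase and Snap29, of endosomal and autophagic fusion, followed at 16.0. Synaptotagmins were low over all 21 libraries: the family was led by Syt5 at 4.14 CPM per kilobase and Syt1 at 3.54. In single groups some stood higher, with Syt7 at 12.0 CPM per kilobase in the reference and Syt1 at 15.4 in thymus. Sytl1 and Sytl2 led the synaptotagmin-like proteins at 3.48 and 3.40 CPM per kilobase. Stxbp3 was second in its family at 13.2 CPM per kilobase.

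Partner genes with the same place in the fusion complex changed order between groups. Per kilobase, Snap25 stood at 23.5 CPM and Snap23 at 16.1 CPM in the reference, against 2.28 and 20.1 CPM in small intestine tuft cells. In trachea the same pair stood at 0.105 and 45.1 CPM per kilobase. Vamp2 lay below Vamp8 in small intestine tuft cells, at 30.5 against 86.4 CPM per kilobase, and above it in thymus, at 84.0 against 51.0, and in trachea, at 198 against 39.7. Stx4a was first of all 56 members in 5 of the groups and second to Vamp2 in trachea.

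Small intestine tuft cells were first set against the other epithelial cells of the same tissue, to ask which of these genes mark the tuft cell within 1 epithelium. Snap25, 4 of 9 synaptotagmins tested and 4 of 5 synaptotagmin-like genes were among the genes that fell in tuft cells, and Vamp8 had the largest rise. Calls required an adjusted p under 0.05 (edgeR quasi-likelihood test, Benjamini-Hochberg adjustment over all 16063 genes tested) and at least a 2-fold change. Of the 46 members with enough counts to be tested, 6 were called higher (13.0%, beside 13.0% of all genes tested) and 14 lower (30.4%, beside 13.9% of all genes). The median log2 fold change was -0.05 over these members and -0.03 over all genes.

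Snap25, the target membrane SNARE of neurons and endocrine cells (GRCm38 chromosome 2, 136713453 to 136782428), was at 162, 180 and 137 CPM in the reference libraries and at 18.6, 12.3 and 15.6 CPM in the tuft libraries. The groups did not overlap, with a log2 fold change of -3.31 ± 0.18 (SE, n = 3 and 3; adjusted p = 5.82e-07), a 9.89-fold fall. Stxbp5l, a relative of tomosyn, which blocks SNARE assembly, was at 22.8, 21.9 and 22.3 CPM and fell to 1.62, 1.03 and 3.69 CPM. Stxbp6, or amisyn, which binds the same SNAREs, was at 16.8, 13.9 and 14.3 CPM and fell to 1.87, 2.25 and 2.30 CPM. All 3 genes were lower in every tuft library than in any reference library.

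Stx17, the syntaxin of autophagosome fusion, changed less, from 68.6, 68.6 and 51.7 CPM to 25.2, 20.1 and 18.2 CPM in tuft cells (log2 fold change -1.51 ± 0.18). Snap91, the clathrin adaptor, had no count in the 3 tuft libraries and 0.305, 0.878 and 1.20 CPM in the reference. Against a floor of 3 counts in each tuft library, its mean was at least 11-fold higher in the reference (adjusted p = 0.00262).

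Of the 9 synaptotagmins tested, 4 fell and 1 rose. Syt7, a calcium sensor of slow and sustained release, was at 92.1, 98.8 and 78.9 CPM in the reference and at 0.722, 7.58 and 5.28 CPM in tuft cells. That fall was 19.0-fold (log2 fold change -4.25 ± 0.61, adjusted p = 0.000344) and the groups did not overlap, although the tuft libraries spread widely. Of the exon length of Syt7, 5.13% is shared with the gene Gm26859. Syt13, which lacks the calcium-binding residues, was at 12.9, 19.4 and 14.2 CPM against 1.17, 1.03 and 1.37 CPM. Syt14 fell from 5.57, 3.29 and 3.83 CPM to 1.06, 0.275 and 0.196 CPM. Syt5, a calcium sensor of dense-core vesicles, was at 8.91, 10.2 and 13.2 CPM against 2.68, 4.00 and 7.46 CPM, the smallest called fall (log2 fold change -1.13 ± 0.38, adjusted p = 0.034). Syt11, a synaptotagmin that does not bind calcium, moved the other way, from 2.78, 4.61 and 4.11 CPM to 10.3, 6.28 and 11.4 CPM (log2 fold change 1.34 ± 0.32).

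Of the members with counts in both groups, the Rab27 tethers Sytl5 and Sytl2 had the largest falls. Sytl2 was at 223, 240 and 204 CPM in the reference and at 6.05, 9.60 and 6.58 CPM in tuft cells, a 28.7-fold fall (log2 fold change -4.84 ± 0.21, adjusted p = 1.09e-07). Sytl5 stood at 14.8, 25.0 and 21.3 CPM against 0.451, 0.900 and 0.220 CPM, a 37.1-fold fall. Sytl4, or granuphilin, which docks insulin granules, was at 9.16, 11.0 and 10.1 CPM against 1.02, 0.675 and 0.782 CPM. Sytl1 fell 12.8-fold, from 4.51, 6.64 and 9.20 CPM to 0.970, 0.375 and 0.171 CPM. Sytl3 was the family's exception, at 3.92, 6.41 and 5.15 CPM against 6.72, 4.63 and 8.65 CPM, and was not called.

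The 6 members called higher in tuft cells were Vamp8, Stx4a, Stx7, Stxbp3, Snap47 and Syt11. Vamp8 (chromosome 6, 72385223 to 72390703) was at 67.4, 67.2 and 75.7 CPM in the reference and at 167, 204 and 228 CPM in tuft cells, with a log2 fold change of 1.57 ± 0.15 (adjusted p = 2.45e-05), or 2.98-fold. Stx4a, at 150, 161 and 148 CPM in the reference, was at 231, 385 and 273 CPM in tuft cells. Stx7, a syntaxin of late endosomes, was at 52.2, 43.3 and 39.6 CPM against 82.0, 84.1 and 101 CPM. Each of these genes had all 3 tuft libraries above all 3 reference libraries. Stxbp3, a Sec1/Munc18 protein that binds Stx4a, was at 49.1, 39.2 and 39.9 CPM against 91.1, 80.8 and 85.1 CPM. A pseudogene, Stxbp3-ps, exists, so reads of Stxbp3 may have been split and its value is uncertain. Snap47 was at 10.3, 8.90 and 13.8 CPM against 28.9, 19.6 and 17.0 CPM; 11.6% of its exon length is shared with Jmjd4 on the other strand. Stxbp2, the partner of Stx11 in cytotoxic granule release, stayed under the 2-fold limit at 159, 170 and 175 CPM against 284, 337 and 294 CPM. Vamp2 was at 79.9, 84.5 and 91.1 CPM against 124, 112 and 113 CPM, with all tuft libraries above the reference and a log2 fold change of 0.51 ± 0.12. Syt1, low in both groups, was at 1.17, 0.898 and 0.700 against 1.20, 1.55 and 3.59 CPM (log2 fold change 1.26 ± 0.59, adjusted p = 0.111). Vamp3 was at 109, 102 and 94.6 against 77.8, 71.9 and 76.2 CPM, and Snap23 at 71.3, 63.7 and 73.0 against 104, 70.3 and 84.7 CPM, and none of these 5 genes was called.

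Beside these falls, all 14 enteroendocrine markers tested fell (among them Chga, Chgb and Neurod1), and their summed level went from between 9810 and 13800 CPM in the reference to between 503 and 1080 CPM in tuft cells. All 8 goblet cell and all 5 Paneth cell markers fell as well. Other markers rose: 2 of 8 enterocyte markers, whose list summed to between 13500 and 15500 CPM in the reference and between 25000 and 30700 CPM in tuft cells, 4 of 5 T cell markers (2.64 to 5.92 against 21 to 32.3 CPM) and 2 of 4 myeloid markers (11.2 to 12.3 against 16.6 to 35.5 CPM). The part of these cells in the members' changes was not tested. These 4 calls near the 2-fold limit ended when 1 library was left out: Stx4a at log2 fold changes of 0.77 to 1.00 (without reference replicate 3 or tuft replicate 3), Stx7 at 0.94 to 0.96 (reference 3 or tuft 4), Stxbp3 at 1.00 (reference 2) and Snap47 at 0.81 to 1.00 (reference 1 or 2, or tuft 2). Syt5 was lost at adjusted p of 0.057 to 0.129 without any 1 library but tuft replicate 4, and in a fit of all 21 libraries 1 member (Stxbp3) was called higher and 6 lower. Vamp8 was among the calls lost in that fit, at a log2 fold change of 1.51 and adjusted p = 0.209, with Snap47, Stx4a, Stx7 and Syt11.

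**Figure D2:**
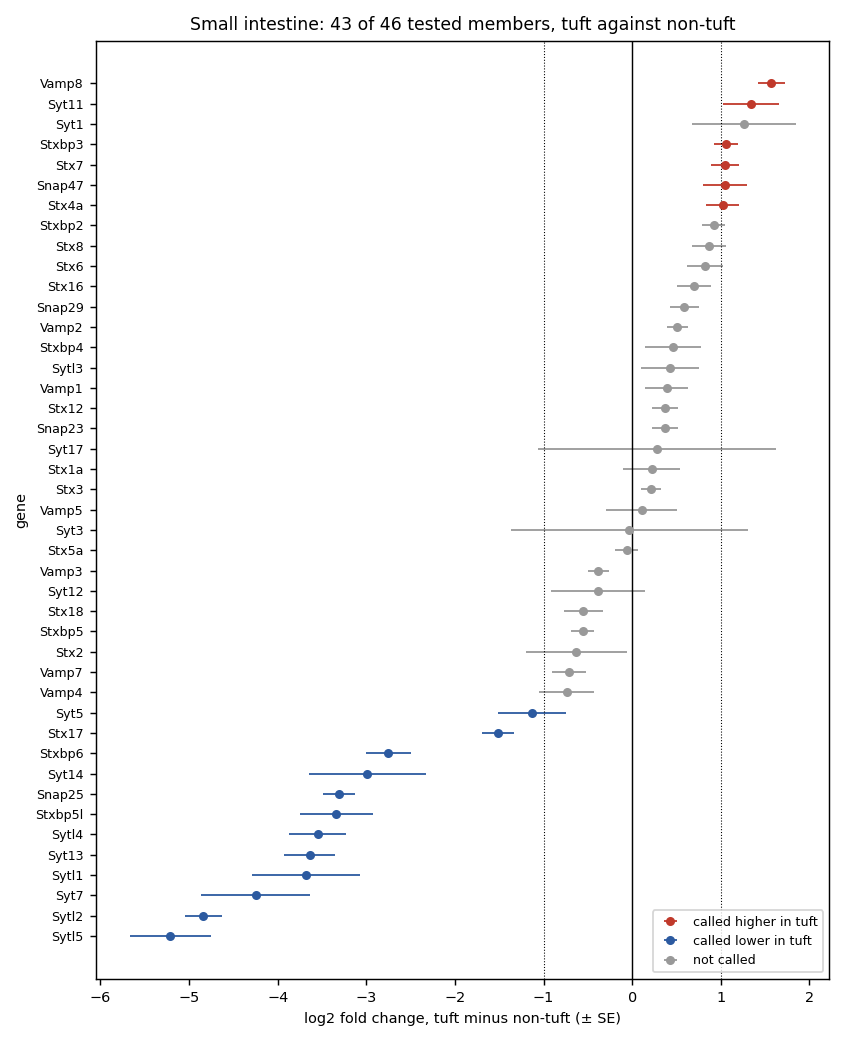
Log2 fold change (tuft minus non-tuft, small intestine, ± SE) of 43 of the 46 tested members, with Snap91 among those left out because it had no count in tuft cells. Vamp8 is the furthest to the right at 1.57 and Sytl5 the furthest to the left at -5.21; dotted lines mark a 2-fold change.

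Each tissue's tuft cells were then compared with the other 4 tissues, averaged without weights on the log scale, in 1 fit of the 18 tuft libraries (19850 genes tested, of which 53 were members). These 5 comparisons share their libraries, so they are not independent of each other. Small intestine tuft cells differed mainly by low levels: 1 member was called higher (1.89% of those tested, beside 10.0% of all genes) and 7 lower (13.2%, beside 7.45%). The median log2 fold change was -0.39 over members and -0.14 over all genes. Of all calls in this comparison 57.4% were higher with edgeR and 42.5% with DESeq2. The called gene on the high side was Snap25, whose 18.6, 12.3 and 15.6 CPM compare with 4.03, 1.59, 1.12 and 4.08 CPM in colon and 0.760, 0.143 and 0.131 CPM in gall bladder (log2 fold change 3.10 ± 0.72, adjusted p = 0.00421). Thymus overlapped it, at 30.8, 5.67, 6.97 and 14.4 CPM. In the same comparison 10 of 14 enteroendocrine markers were higher in small intestine tuft, and their part in the Snap25 value was not tested.

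Vamp4, a SNARE of the trans-Golgi network, at 3.07, 3.48 and 4.99 CPM lay below all other tuft libraries. Its lowest value elsewhere was 5.19 CPM in gall bladder (log2 fold change -2.63 ± 0.67). Vamp2 at 124, 112 and 113 CPM was lower by the same test (log2 fold change -1.26 ± 0.24), although colon overlapped it at 94.4 to 154 CPM and gall bladder at 121 to 222 CPM. Snap91, Stx11 and Stx19 were called lower with no count or a single count in 3 libraries together, so no fold is given. Leaving out a small intestine tuft library took the count of lower calls from 7 to 4 for each of replicates 2, 3 and 4. Among the calls then lost were Snap91, Stx11 and Vamp4, at adjusted p of 0.0522 (Vamp4) to 0.0788 (Stx11).

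Colon tuft cells had higher Syt6, Syt7, Sytl1 and Sytl4 and lower Stx7, Syt1, Vamp1, Vamp2 and Vamp5. Of 53 members, 4 were called higher (7.55%, beside 10.7% of all genes) and 5 lower (9.43%, beside 5.78%), with a median log2 fold change of -0.63 over members and -0.01 over all genes. Of all calls 64.9% were higher with edgeR and 51.3% with DESeq2. Syt7 was at 16.9, 21.4, 35.1 and 31.5 CPM, above all libraries of small intestine tuft, gall bladder and trachea and overlapping thymus, at 15.6 to 51.0 CPM (log2 fold change 2.74 ± 0.71, adjusted p = 0.0101). Sytl1, a Rab27 tether of secretory granules, was at 28.4, 22.3, 21.3 and 9.51 CPM (log2 fold change 3.18 ± 0.97), and overlapped thymus and trachea pool 2, which was at 23.1 CPM. Sytl4 was at 5.74, 6.69, 5.46 and 3.41 CPM, inside the range of trachea (log2 fold change 2.50 ± 0.85, adjusted p = 0.0478). Syt6 was the other call, at 1.69, 0, 0.223 and 1.76 CPM, and was without a count in tuft cells of small intestine, gall bladder and trachea. Thymus was higher on average, at 10.8, 0.313, 0.226 and 1.25 CPM, so the colon call rested on the tissues without counts.

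Among lower calls Stx7 did not overlap the other tissues: colon stood at 54.4, 47.8, 43.8 and 50.3 CPM and the lowest other library at 66.2 CPM, in gall bladder (log2 fold change -1.08 ± 0.23, adjusted p = 0.00223). Vamp2 was at 154, 129, 94.4 and 129 CPM (log2 fold change -1.12 ± 0.21). Vamp1, or synaptobrevin 1, at 16.1, 12.8, 18.6 and 11.1 CPM overlapped small intestine tuft at 17.5, 15.9 and 10.1 CPM. Vamp5, a SNARE first known from muscle, was at 0.301, 1.14, 0.762 and 1.13 CPM, and Syt1 at 0.879, 1.12, 1.43 and 2.00 CPM. Without colon replicate 1, 2 or 3 the higher calls went from 4 to 2 and the lower calls from 5 to 2. Sytl1 was lost at adjusted p of 0.0607 to 0.0795 without any of those 3 libraries, Vamp5 at 0.0569 to 0.0894 without any 1 colon library, and Syt1 at 0.0505 to 0.0608 without colon replicate 1 or 2. Vamp2 fell to a log2 fold change of -1.0 without colon replicate 3. Sytl4 was lost at 0.0542 to 0.117 in 12 of the 18 fits that left out 1 library, and Vamp1 at 0.0622 to 0.126 in 10, each without any 1 colon library among others. Beside these values, 3 of 8 goblet cell markers were higher in colon, where they summed to between 6600 and 9170 CPM, and 7 of 10 tuft cell markers were lower, at a sum of 3150 to 4290 CPM. Their part in the members' values was not tested.

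Gall bladder tuft cells had Syt1, Vamp1, Vamp5 and Sytl5 at higher levels than the mean of other tuft tissues on the log scale. The 4 higher calls were 7.55% of members tested, beside 12.7% of all genes, and the 4 lower calls 7.55%, beside 8.79%. The median log2 fold change was -0.19 over members and over all genes. Of all calls 59.1% were higher with edgeR and 41.7% with DESeq2. Syt1, the fast calcium sensor of synapses, was at 29.1, 16.1 and 45.3 CPM, above small intestine tuft at 1.20, 1.55 and 3.59 CPM and below thymus at 132, 139, 107 and 136 CPM (log2 fold change 3.58 ± 0.44, adjusted p = 9.09e-06). All 3 libraries thus lay between those of thymus and of the remaining tissues. Vamp5 was at 9.12, 13.2 and 66.5 CPM (log2 fold change 3.08 ± 0.75), and without replicate 4 its adjusted p was 0.201. Sytl5 was at 6.18, 8.02 and 2.20 CPM (log2 fold change 3.35 ± 1.01) and was lost at adjusted p of 0.0632 to 0.0964 without replicate 1 or 3. Vamp1 was at 44.7, 116 and 45.8 CPM, carried by replicate 3. Its log2 fold change of 1.36 ± 0.45 fell to 0.75 without that library. The Vamp1 call was also lost without small intestine replicate 3 or 4. Trachea overlapped gall bladder for Vamp1 (16.9 to 159 CPM), Vamp5 (1.73 to 74.7 CPM) and Sytl5 (0 to 2.92 CPM). Mean Vamp1 was 75.9 CPM in trachea and 68.8 CPM in gall bladder.

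Lower calls in gall bladder covered genes near their floor. Snap25 was at 0.760, 0.143 and 0.131 CPM, Sytl4 at 0.203, 0 and 0.105 CPM and Syt14 at 0.0253, 0 and 0.0523 CPM. For Snap25 the log2 fold change was -3.72 ± 1.14 (adjusted p = 0.0239). The lower count was 2 without replicate 4 of gall bladder, Snap25 being lost at adjusted p of 0.0883 to 0.0909 without replicate 3 or 4 and Sytl4 at 0.0603 to 0.103 without any 1 gall bladder library. Vamp8 spread widely, at 443, 129 and 121 CPM, and Stx4a stood at 530, 389 and 340 CPM, the highest group mean of that gene, and neither was called. Of the neuron and glia markers, 2 of 8 tested were higher in gall bladder: the list summed to between 214 and 423 CPM there, mostly Nefl at 287 ± 104 CPM (SD, n = 3) and S100b at 44.7 ± 41.0 CPM, while Tubb3 and Sox10 had no count. Their part in the Syt1 and Vamp1 values was not tested.

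Thymus tuft cells held more of many synaptotagmins than the mean of the other tuft tissues, and more Snap25, which small intestine tuft matched. In this comparison 22 of 53 members were called higher (41.5%, beside 26.8% of all genes), the background of this tissue being itself high, and 0 lower (0%, beside 5.64%). The count of lower calls was 0 also with DESeq2 and with limma voom, and 1 member was lower at an unadjusted p under 0.05 by edgeR. Higher calls took in 11 of 14 synaptotagmins tested, 1 of 5 synaptotagmin-like genes, 3 of 15 syntaxins, 4 of 7 Stxbp genes, 2 of 5 Snap genes and 1 of 7 Vamp genes. The median log2 fold change was 0.44 over members and 0.33 over all genes. Scaling by DESeq2 size factors in place of TMM moved the median of all genes by 0.11.

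Syt1 (chromosome 10, 108497650 to 109010982) was at 132, 139, 107 and 136 CPM in thymus. The highest library of any other tuft tissue was at 45.3 CPM in gall bladder, and trachea was at 0.140, 0.204, 0 and 0 CPM. Its log2 fold change was 6.37 ± 0.44 (adjusted p = 3.09e-09), with all 4 thymus libraries above the other 14. Stx11, the syntaxin of cytotoxic granule release in lymphocytes (chromosome 10, 12938209 to 12964298), stood at 31.8, 15.5, 19.4 and 35.5 CPM. Elsewhere its highest tuft library was at 2.14 CPM, in gall bladder, and small intestine tuft had a count in only 1 of 3 libraries. Snap91 (chromosome 9, 86765923 to 86880654) was at 20.2, 14.8, 15.5 and 14.4 CPM, and at 0.587 CPM or less in all other tuft libraries. Its thymus mean was at least 225-fold above the 3-count floor of small intestine tuft, and both genes were called (adjusted p = 1.06e-06 for Stx11 and 3.90e-06 for Snap91).

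Of the 41 members that reached 10 CPM, these 3 were the ones with all 4 thymus libraries above the 17 others. They were 30% of the 10 members highest in thymus, beside 45.6% of all genes highest there. The sequence before their start sites is shown (RefSeq promoter windows, GRCm38.p6, 5′ to 3′ on the gene's strand, without bases that GENCODE M21 gives as exon). Capitals mark CCAAT or its reverse complement in Syt1, and GGGCGG or its reverse complement in Snap91 and Stx11.
Syt1, chr10:109010983-109011225, minus strand: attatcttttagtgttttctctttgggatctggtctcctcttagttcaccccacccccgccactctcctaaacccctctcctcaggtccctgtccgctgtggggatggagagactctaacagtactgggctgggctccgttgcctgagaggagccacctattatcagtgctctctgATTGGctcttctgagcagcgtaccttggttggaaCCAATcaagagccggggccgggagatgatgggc
Snap91, chr9:86880709-86880958, minus strand: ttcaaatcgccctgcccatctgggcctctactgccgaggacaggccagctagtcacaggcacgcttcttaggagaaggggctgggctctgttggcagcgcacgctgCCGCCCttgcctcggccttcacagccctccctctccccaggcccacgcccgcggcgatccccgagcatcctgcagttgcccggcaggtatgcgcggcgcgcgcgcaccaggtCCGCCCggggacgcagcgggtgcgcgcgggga
Stx11, chr10:12964299-12964509, minus strand: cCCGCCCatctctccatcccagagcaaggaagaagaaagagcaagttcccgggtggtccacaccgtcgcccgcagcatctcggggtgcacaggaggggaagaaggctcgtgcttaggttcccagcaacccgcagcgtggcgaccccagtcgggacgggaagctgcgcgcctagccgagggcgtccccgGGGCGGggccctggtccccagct
RefSeq windows matched 43 of the 56 members, and for each the 1 window nearest its annotated start was used. The percentages count every window, and a gene can have several, so the sets are not alike. In the 250 bases before the start, on either strand, CCAAT was found in 12 of the 43 and in 33.8% of 32851 windows of all genes, and GGGCGG in 27 of the 43 and in 32.7% of all windows. TATAAA was in 1 member window (Stx3) and 12.4% of all, the octamer ATGCAAAT in 1 (Stx6) and 1.60%, and TGACGTCA, the cAMP response element, in 1 (Stxbp3) and 1.55%. A match is a string of letters and not a shown binding site.

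Other thymus calls were less separate from the remaining tissues. Syt13 was at 36.8, 8.82, 16.7 and 2.96 CPM (log2 fold change 5.94 ± 0.88, adjusted p = 2.71e-05), with 1 colon library at 4.95 CPM inside that range. Syt7 at 33.6, 22.9, 51.0 and 15.6 CPM overlapped colon (log2 fold change 3.20 ± 0.71). Syt5 was at 14.9, 21.6, 12.1 and 35.8 CPM and overlapped trachea, where pool 1 was at 34.9 CPM. The other 7 called synaptotagmins (Syt2, Syt6, Syt8, Syt9, Syt10, Syt14 and Syt17) had thymus means under 10 CPM, from 0.495 for Syt9 to 9.46 for Syt8. Some were uneven: Syt2 was at 0.257, 0, 0.226 and 8.09 CPM in thymus and Syt10 at 8.29, 0.0184, 2.67 and 0 CPM. Syt9 had a higher mean in trachea, at 3.06 CPM. Calls of these 7 genes were not followed singly when libraries were left out. Snap25 was at 30.8, 5.67, 6.97 and 14.4 CPM (log2 fold change 3.16 ± 0.68, adjusted p = 0.00112). Its mean of 14.5 CPM was no higher than the 15.5 CPM of small intestine tuft, while gall bladder and trachea averaged 0.345 and 0.71 CPM. Stx19, an unusual syntaxin without a membrane anchor of its own, was at 3.03, 3.32, 3.12 and 6.36 CPM, below its trachea mean of 13.4 CPM.

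Stxbp5l stood at 4.57, 6.10, 13.3 and 3.08 CPM in thymus, and Stxbp6 at 21.8, 11.2, 11.4 and 44.2 CPM. Sytl1 was at 8.62, 21.7, 13.7 and 11.8 CPM. Stxbp3 at 119, 125, 115 and 103 CPM had a log2 fold change of 1.01 ± 0.19, at the 2-fold limit, and Vamp4 at 28.0, 34.5, 25.7 and 29.2 CPM one of 1.20 ± 0.46 (adjusted p = 0.0468). Means were higher elsewhere for Vamp4 (46.8 CPM in trachea, 29.3 CPM in thymus) and Sytl1 (20.4 CPM in colon, 14.0 CPM in thymus). Mean Stxbp6 was 21.1 CPM in colon and 22.1 CPM in thymus, and Stxbp3 reached 108 CPM in gall bladder. Leaving out a library ended the calls of 5 genes given in full. Stxbp3 then fell to 0.84 to 0.98 on the log2 scale in 13 of 18 such fits, Vamp4 was lost at adjusted p of 0.0569 to 0.166 in 15, Sytl1 at 0.0514 to 0.146 in 12, Stxbp6 at 0.0508 to 0.234 in 8 and Syt5 at 0.0576 to 0.115 in 3. The Syt5 calls were lost without thymus replicate 1, 2 or 4; the other 4 genes lost theirs without thymus replicate 1, 2 or 3, and Stxbp6, Sytl1 and Vamp4 without thymus replicate 4 too, beside libraries of other tissues. Thymus libraries also held thymic epithelium markers (5 of 5 higher, summing to between 1550 and 1860 CPM), airway neuroendocrine markers (5 of 5 higher, between 133 and 229 CPM, with Calca at 18.2 ± 12.1 CPM) and 8 of 14 enteroendocrine markers at higher levels, summing to between 190 and 299 CPM. Of neuron and glia markers 4 of 8 were higher, at a sum of 50.4 to 69.8 CPM. Airway basal markers, a list named for another tissue, were higher in 3 of 3 (746 to 862 CPM). T cell markers were higher in 4 of 7 (8.95 to 29.4 CPM). So were mast cell and basophil markers in 4 of 4 (5.62 to 8.86 CPM) and myeloid markers in 2 of 5 (193 to 263 CPM). Their part in the members' values was not tested.

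**Figure D3:**
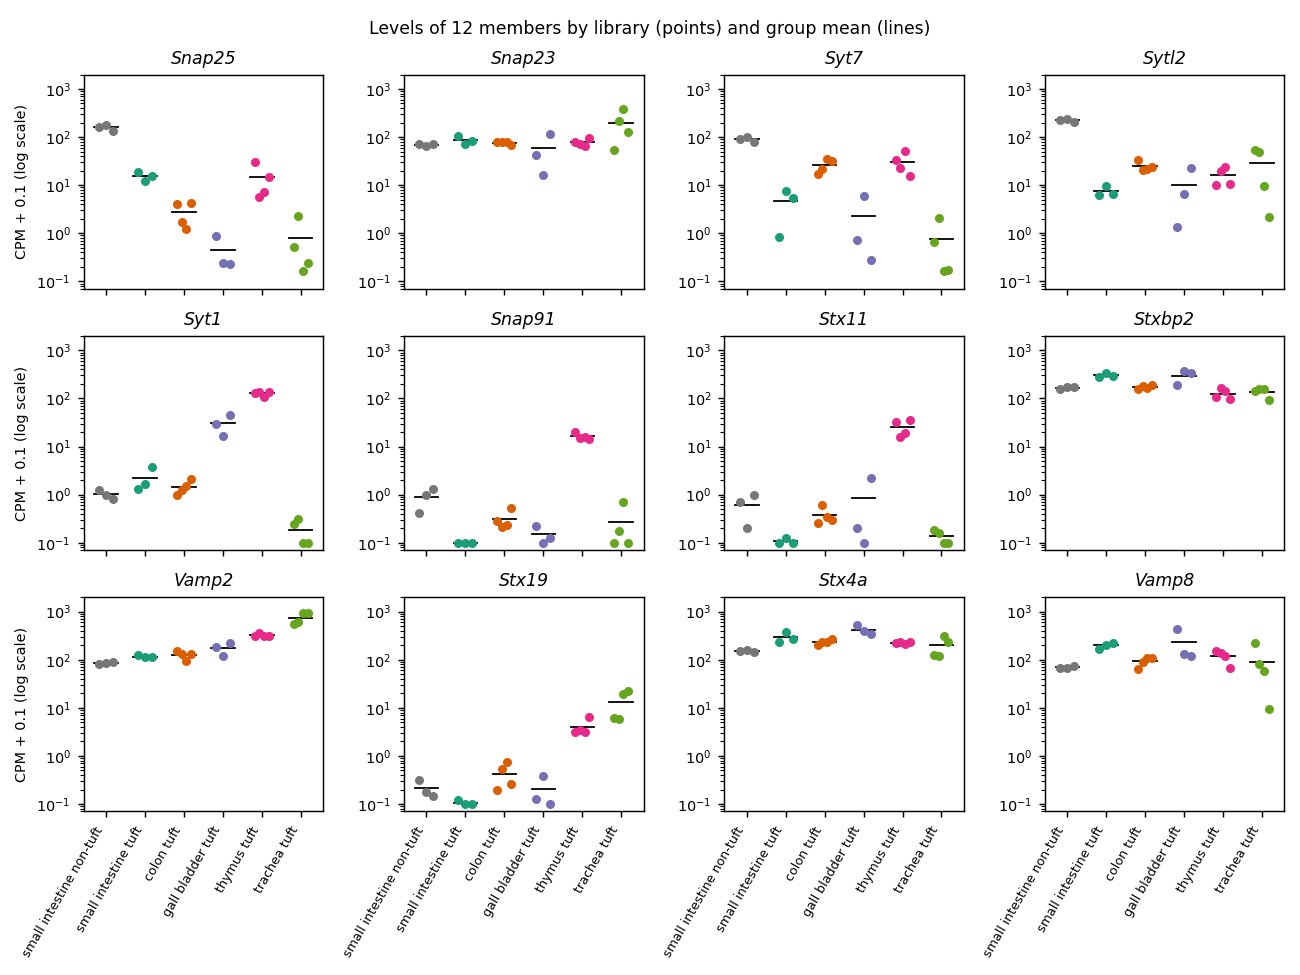
Levels of 12 members in each library (points) and group means (lines), as CPM + 0.1 on a log axis. Snap25, Syt7 and Sytl2 sit highest in the reference, Syt1, Snap91 and Stx11 in thymus, and Vamp2 in trachea, where points of 1 gene can lie far apart.

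Trachea tuft cells had the highest levels of Vamp2 and less than 1 CPM of Syt1 and Snap25 on average. Of 53 members, 12 were called higher (22.6%, beside 17.3% of all genes) and 5 lower (9.43%, beside 13.7%), with a median log2 fold change of 0.64 over members and -0.01 over all genes. Vamp2 (chromosome 11, 69088490 to 69092384) was at 545, 600, 940 and 929 CPM, above the highest other tuft library at 352 CPM in thymus (log2 fold change 2.16 ± 0.17, adjusted p = 2.96e-08). All 4 pools lay above the other 14 tuft libraries. Stx4a was at 123, 122, 316 and 233 CPM in trachea.

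The other Vamp and Snap calls rested on uneven pools. Vamp4 was at 13.0, 35.3, 54.5 and 84.3 CPM (log2 fold change 1.95 ± 0.44, adjusted p = 0.00217). Without the 2 female pools its log2 fold change was 0.96 (adjusted p = 0.226), and Snap23, Sytl4, Syt7, Syt13, Snap25 and Stx11 also lost their calls. Vamp1 was at 98.2, 29.3, 159 and 16.9 CPM, Vamp5 at 74.7, 1.73, 2.01 and 27.9 CPM, and Snap23 at 52.7, 218, 379 and 125 CPM. Single pools carried these last 3 genes. Without pool 3, Snap23 fell from a log2 fold change of 1.38 ± 0.37 to 0.82 and Vamp1 from 1.52 ± 0.41 to 0.89, and without pool 1 Vamp5 was lost at adjusted p = 0.0904. Stx6, a syntaxin of the trans-Golgi network, was at 57.5, 83.3, 6.12 and 126 CPM and lost its call (log2 fold change 1.22 ± 0.44) in 6 of 18 fits that left out 1 library, those of trachea pools 2 and 4, colon 2 and 3, gall bladder 3 and thymus 2, at adjusted p of up to 0.314. Stx16 was at 130, 71.6, 240 and 221 CPM, its highest group mean, and was not called.

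Stx19 was at 6.04, 5.89, 19.0 and 22.6 CPM in trachea, and its highest value in another tuft tissue was 6.36 CPM in thymus (log2 fold change 6.13 ± 0.80, adjusted p = 8.42e-06). Sytl4 was at 6.97, 0.675, 38.6 and 1.02 CPM, and without pool 3 its call was lost at adjusted p = 0.0997. Syt9, Syt10 and Syt14 were called at means of 3.06, 1.62 and 4.98 CPM, with at least 1 pool at 0.0618 CPM or less for each gene. Syt10 had counts in pool 2 alone, at 6.49 CPM.

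On the low side, Syt1 was at 0.140, 0.204, 0 and 0 CPM, under the lowest other tuft library at 0.879 CPM in colon (log2 fold change -6.74 ± 0.74, adjusted p = 1.11e-06). Syt7 was at 0.562, 1.96, 0.0618 and 0.0706 CPM (log2 fold change -3.88 ± 1.05) and Syt13 at 0.0843, 0.0471, 0 and 0 CPM. Snap25 at 0.421, 2.21, 0.0618 and 0.141 CPM overlapped gall bladder (log2 fold change -2.48 ± 0.91, adjusted p = 0.0419). Stx11 had counts in 2 of the 4 pools, at 0.0843 and 0.0628 CPM. The number of lower calls was 3 without trachea pool 4, small intestine replicate 3, thymus replicate 1 or thymus replicate 3, and 8 without trachea pool 1. Snap25 lost its call in 12 of the 18 fits that left out 1 library, those of small intestine 2, 3 and 4, colon 1 and 4, gall bladder 1, thymus 1, 3 and 4 and trachea 1, 3 and 4, at adjusted p of 0.0517 to 0.0973. Stx11 lost it in 8, those of small intestine 3, gall bladder 4, thymus 1, 3 and 4 and trachea 2, 3 and 4.

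Airway secretory and ciliated markers took 23900 to 109000 CPM of the trachea libraries (4 of 6 called higher), led by Scgb1a1 at 23700 ± 21200 CPM (SD, n = 4). Myeloid markers summed to between 1750 and 3830 CPM there, and to at most 263 CPM in any library of the other groups. Of these 5 markers, 1 was called higher and 1 lower, and 3 had a trachea mean of at least 1 CPM. Airway basal markers were higher in 2 of 3, at a sum of 9.15 to 152 CPM. Enteroendocrine markers summed to between 6.52 and 49.6 CPM there, with 10 of 14 lower and 1 higher. Airway neuroendocrine markers summed to between 27.8 and 111 CPM, with 2 of 5 called higher and 3 lower. Calca, 1 of that list, was at 0.0109 ± 0.0136 CPM. Their part in the members' values was not tested.

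**Figure D4:**
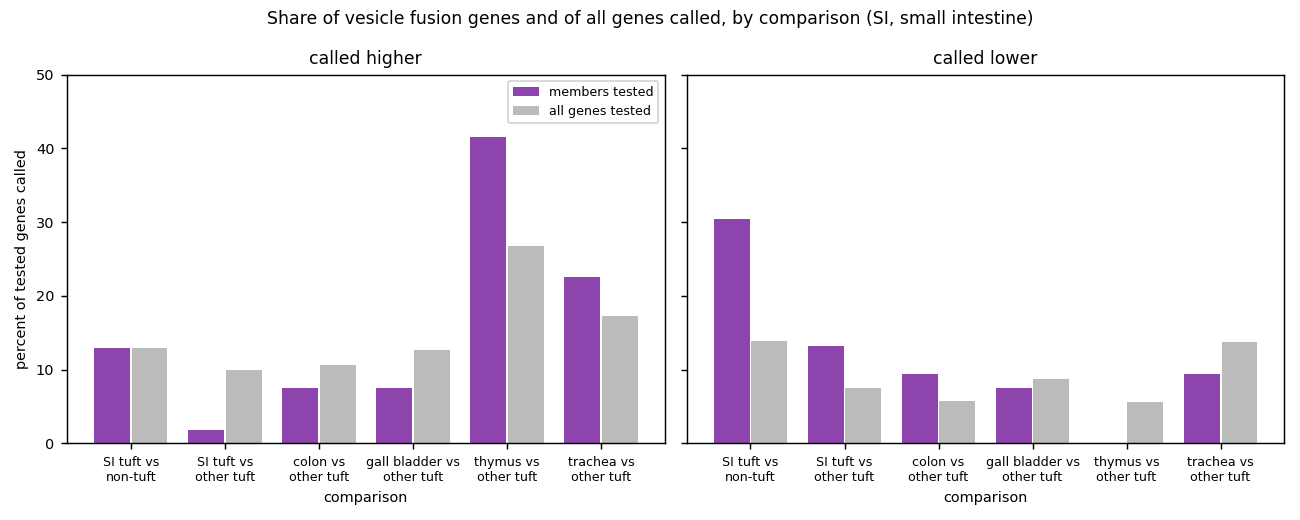
Percent of tested members (purple) and of all tested genes (grey) called higher (left) and lower (right) in each of the 6 comparisons, on a linear axis from 0. Members stood at 30.4% against 13.9% among lower calls of small intestine tuft cells, at 41.5% against 26.8% among higher calls in thymus and at 22.6% against 17.3% among higher calls in trachea.

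Of the 56 members, 20 were called in none of the 6 comparisons. They were Snap29, Stx1a, Stx2, Stx3, Stx5a, Stx8, Stx12, Stx16, Stx18, Stxbp2, Stxbp4, Stxbp5, Syt3, Syt4, Syt12, Syt15, Syt16, Sytl3, Vamp3 and Vamp7. Snap29 was at 55.3, 48.4 and 49.5 CPM in the reference and at 91.8, 60.1 and 70.1 CPM in small intestine tuft cells, with group means of 47.4 to 62.1 CPM in the other tissues. Stx3, an apical syntaxin of epithelia, had group means from 50.5 CPM in trachea to 88.2 CPM in thymus. Stx5a, of transport between endoplasmic reticulum and Golgi, had means from 44.0 CPM in thymus to 78.8 CPM in trachea, where pool 1 alone was at 199 CPM. Stxbp5, or tomosyn, had means from 49.1 to 87.9 CPM. Stx1a, a syntaxin of synapses, stayed under 6 CPM in every group mean, and Syt4, Syt15 and Syt16 had too few counts to be tested.

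A wider list of 78 exocytosis genes that are not members was described in the same fits. In small intestine tuft cells against the reference, 6 of 68 tested rose (8.82%, beside 13.0% of all genes) and 18 fell (26.5%, beside 13.9%). Both complexins tested fell: these clamp the assembled SNARE bundle, and Cplx2 was at 25.1 to 33.4 CPM in the reference and 1.93 to 7.53 CPM in tuft cells (log2 fold change -2.75 ± 0.42). Among vesicle membrane proteins 7 of 12 fell, Syp among them, and of Rab3 and Rab27 with their effectors 5 of 9 fell. Cadps, which primes dense-core vesicles, fell from 14.1 to 21.2 CPM to 0.248 to 0.925 CPM (log2 fold change -4.60 ± 0.45), while its relative Cadps2 rose from 19.6 to 21.5 CPM to 37.1 to 47.3 CPM. Unc13d, the priming factor of immune granules, rose from 1.63 to 3.44 CPM to 19.7 to 36.8 CPM (log2 fold change 3.51 ± 0.34, adjusted p = 2.46e-05). Nsf, the ATPase that takes SNARE bundles apart, rose from 70.6 to 75.0 CPM to 139 to 168 CPM. The 9 exocyst subunits, the 12 other SNAREs and the 5 other Sec1/Munc18 genes tested held no call in either direction.

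Between tuft tissues, 75 genes of the list were tested. Higher calls numbered 3 in small intestine (4%, beside 10.0% of all genes), 6 in colon (8%, beside 10.7%), 13 in gall bladder (17.3%, beside 12.7%), 19 in thymus (25.3%, beside 26.8%) and 17 in trachea (22.7%, beside 17.3%). Lower calls numbered 8 in small intestine (10.7%, beside 7.45%), 6 in colon (8%, beside 5.78%), 7 in gall bladder (9.33%, beside 8.79%), 2 in thymus (2.67%, beside 5.64%) and 7 in trachea (9.33%, beside 13.7%). The priming genes Cadps, Cadps2 and Rims2 had their highest levels in different tissues. Cadps2 was at 466 to 680 CPM in trachea and 178 to 212 CPM in thymus, and no library of small intestine tuft, colon or gall bladder was above 51.5 CPM (trachea log2 fold change 3.25 ± 0.15, adjusted p = 8.32e-11). Cadps was at 48.6 to 137 CPM in thymus and at most 2.29 CPM in the other tuft libraries (log2 fold change 7.91 ± 0.70, adjusted p = 6.07e-08). Rims2, a scaffold of release sites, was at 295 to 415 CPM in gall bladder and at most 48.8 CPM elsewhere (log2 fold change 4.23 ± 0.50, adjusted p = 6.41e-06). Unc13d was also highest in gall bladder, at 64.5 to 115 CPM (log2 fold change 2.28 ± 0.38). Rab3b, a small GTPase of secretory vesicles, was at 59.3 to 92.5 CPM in trachea, 27.1 to 58.3 CPM in gall bladder and 0.303 to 0.694 CPM in colon. Syn1, which tethers synaptic vesicles, was at 8.62 to 17.0 CPM in thymus and at most 4.17 CPM in the other tuft libraries.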

How the data were processed

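Per the labels' protocols, sorted cells gave poly A RNA, which was amplified with NuGEN Ovation V2 before Nextera XT library preparation. The authors deposited raw counts per gene identifier, 1 table per library. STAR, DESeq2 and GRCm38 are named in the submitters' processing notes. Versions, annotation, read counting and strand setting: not given in the sources used here. Per the design text, 3 further replicates (small intestine tuft, gall bladder and non-tuft) failed quality control and were dropped by the authors.

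Identifiers were matched to GENCODE M21 (GRCm38): 42548 of 43432 matched, and the 884 others held 0.099% of counts. The naming rule also matched 1 pseudogene, Stxbp3-ps, left out as not protein coding; Vamp9 was not analysed here. Counts, from 25739248 to 73574745 per library, were fitted with edgeR 4.0.16 (filterByExpr, TMM, glmQLFit with legacy = TRUE, glmQLFTest, two-sided, Benjamini-Hochberg over all genes tested; R 4.3.3). The fit of small intestine held 6 libraries and that of tuft tissues 18. SE is the log2 fold change divided by the square root of F. Calls needed an adjusted p under 0.05 and a 2-fold change. P-values set each change against the spread between these libraries. In the tissue fit the 5 tuft groups shared 1 estimate of that spread. The median ratio of SD to mean over members ran from 0.172 in small intestine tuft to 0.712 in trachea. P-values may thus be too small for groups with wide spread and too large for groups with narrow spread.

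Members called in at least 1 comparison with a group mean of at least 10 CPM in the highest group, and the 2 members per family with the highest CPM per kilobase, are given in full; others by ranges and counts. Some members and markers stand in the counts and list sums but are not reported here by name. The members and lists were chosen with earlier results of these data known. Alternatives were DESeq2 size factors in edgeR, DESeq2 1.42.0, limma 3.58.1 voom with sample weights, no filter, at least 5 CPM in 3 libraries, a replicate block, all 21 libraries in the fit, leaving out the 2 female trachea pools, and leaving out each library in turn. The fits were tested on simulated data. Tables and figures were made with Python 3.11.15, pandas 2.3.3 and matplotlib 3.10.9.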

Additional observations from a re-analysis of the deposited data

Results flagged for a closer look

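In groups of 4 libraries, a value was singled out where its gap to the nearest other library was, as a share of the group's range, above Dixon's critical value. Of 68 gene and group pairs with a mean of at least 10 CPM, 5 were singled out, and chance alone gives about 1 in 20. Snap47 was at 26.4 CPM in colon replicate 4, beside 11.4 to 11.8 CPM in the other colon libraries. Syt11 was at 81.9 CPM in trachea pool 3, against 0.173 to 9.67 CPM in the other pools. Sytl4 in the same pool was at 38.6 CPM, against 0.675 to 6.97 CPM. Vamp1 was low in thymus replicate 4, at 16.1 CPM beside 33.7 to 37.3 CPM. Vamp2 was at 352 CPM in thymus replicate 2, beside 307 to 314 CPM.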

How the results depend on the processing

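Over the 71 calls of named members, 1352 of 1544 values under the alternatives kept direction and side of the threshold, 192 lost the threshold and 0 changed direction. In the comparison of small intestine tuft with non-tuft cells, a fit of all 21 libraries called 1 member higher and 6 lower, 3 genes of the wider list higher and 7 lower, and 785 and 539 of all genes in place of 2092 and 2235. Leaving out 1 library gave 4 to 6 members higher and 13 to 15 lower.

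Between tissues, members called lower in small intestine numbered 12 with DESeq2, 13 with voom and 12 without the 2 female trachea pools, and voom called 4 members higher there. In gall bladder 10 were lower with DESeq2, 0 with voom and 7 without those pools. In trachea voom called 5 higher and 1 lower. Leaving out 1 library gave, for members higher and lower, 1 to 1 and 4 to 9 in small intestine, 2 to 5 and 2 to 6 in colon, 3 to 5 and 2 to 6 in gall bladder, 16 to 22 and 0 to 0 in thymus, and 10 to 15 and 3 to 8 in trachea. For the wider list, DESeq2 gave 1 higher in small intestine, 10 lower in colon and 12 lower in trachea. Voom gave 6 higher and 14 lower in small intestine, 8 and 1 in gall bladder, and 10 and 1 in trachea. The filter of 5 CPM gave 0 higher in small intestine, 2 in colon and 9 in thymus, with fewer genes tested, and without the female pools 4 were lower in thymus. The cause of the other changes was not tested.

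Counts over all genes also moved by over 1.5 times. Small intestine tuft against other tuft cells went from 1991 higher to 3706 with voom, and from 1478 lower to 2497 with DESeq2, 2949 with voom and 829 to 923 without 1 small intestine library. Colon went from 1148 lower to 1895 with DESeq2 and 1782 with voom, and gall bladder from 2521 higher to 1631 with voom and from 1744 lower to 3328 with DESeq2 and 607 with voom. Trachea went from 3436 higher and 2711 lower to 1852 and 1547 with voom. With the 5 CPM filter, thymus went from 5316 higher to 2651 and small intestine tuft against non-tuft from 2235 lower to 1411.

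With a replicate block, the wider list had 7 higher in gall bladder and 1 lower in thymus, and gall bladder had 1643 of all genes higher. Syt11 lost its call in small intestine tuft against non-tuft cells with the block (log2 fold change 0.94, adjusted p = 0.112). In the small intestine comparison, deviations of same-numbered libraries correlated at -0.0252 to -0.00731 over 2 pairs, beside -0.0163 to 0.0248 over 7 other pairs. Between tuft tissues the range was -0.0241 to 0.13 over 32 same-numbered pairs (median 0.00876). Over 97 other pairs it was -0.0743 to 0.0371 (median -0.00473). Some same-numbered tuft libraries of different tissues thus deviated together more than any differently numbered pair of tuft libraries. Outside these ranges, reference replicate 1 and thymus replicate 3 stood at 0.0841. The value of 0.13 was between small intestine tuft replicate 2, from 1 mouse of 12 weeks, and trachea pool 2, from mice of 16 weeks. By their ages these libraries did not share a mouse. The labels do not say that a number marks shared mice, so the main fits held no block. Whether other same-numbered libraries shared a mouse, or any shared a batch, was not tested. Groups of 3 or 4 libraries and few sorted cells limit the precision of low genes most.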
